A study of Mus musculus with 6 samples.

Results

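Chemokine ligands and their receptors were examined in mesenteric arteries of mice with loxP-flanked beta1 integrin, with or without a Cre transgene named for a smooth muscle gene. The set holds 31 listed genes, 13 CC ligands, 11 CXC or CX3C ligands and 7 receptors. It is part of the chemokine family and was chosen with earlier results of these data known. Members were all probe sets whose only gene symbol in the array's annotation is on that list, with no filter on intensity. This gave 48 probe sets of 30 genes, of 45037 probe sets and 18193 named genes in all; Ccl19 has no probe set of its own symbol and is not analysed here.

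Arteries came from 3 control and 3 knockout mice, 1 Affymetrix array per mouse. Controls 30, 74 and 75 carried loxP-flanked beta1 integrin alleles without Cre. Knockouts 72, 73 and 86 carried the same alleles with sm22alphaCRE, which takes its name from SM22alpha, a protein of smooth muscle. Tamoxifen was given to both groups as 14 doses of 1 mg, a day apart, starting at 5 weeks of age. All mice were 7 weeks old and had a mixed background that included FVB, SVJ129 and C57BL/6. Adipose and lymph tissue had been cleared from the vessels, per the labels. Each array is a separate animal, and the number of arrays limits the precision. The p-values set the difference between the groups against the spread among mice within each group, estimated with help from all probe sets.

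Chemokines are small secreted proteins that direct the movement of leukocytes. They are classed as CC, CXC or CX3C by the spacing of their first cysteines, and act through receptors coupled to G proteins. Several ligands share a receptor, and atypical receptors such as Ackr3 bind ligand without the usual G protein signal. In an artery wall, ligands can come from smooth muscle, endothelium, fibroblasts or resident macrophages, while Ccr2 is best known from circulating inflammatory monocytes.

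Intensities are given as log2(intensity + 1) after quantile normalization, and differences are knockout minus control on that scale. The groups were compared with limma over all 45037 probe sets, and a probe set passed at an adjusted p under 0.05 (Benjamini-Hochberg). Where a gene has several probe sets, the one with the highest mean stands for it. A probe set is called dim where its mean over the 6 arrays lies under 6.10, the median of all such means. Of the 30 genes measured, 11 were dim.

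Itgb1, the targeted gene, stood at 11.80, 11.04 and 11.20 in controls 30, 74 and 75 and at 10.51, 10.56 and 10.76 in knockouts 72, 73 and 86. All knockout values lay below all control values, with a difference of -0.73 (SE 0.21) that did not pass the test (adjusted p = 0.189). Smooth muscle markers were strong on every array, with a summed level of 15.45 to 15.99. Adipocyte markers were also present, at 13.90 to 15.05 in control and 13.87 to 14.48 in knockout arrays. The title letter is F for knockout 86 and M for the other mice, read here as female and male. Xist stood at 11.83 in knockout 86 and 5.29 to 6.09 elsewhere, so results without knockout 86 compare males only. Knockout 73 stood apart in lymphocyte markers. The summed level of 8 T and NK cell genes was 9.43 there and 7.94 to 8.21 on the other arrays, and that of 5 B cell genes was 8.98 against 6.90 to 7.48.

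Ccr2, the receptor that draws monocytes to Ccl2 and related ligands, rose in the knockout and was the only member past the test. In 9 of 30 members every knockout array lay above every control array (9.25% of all probe sets). In 1, Ackr3, every knockout array lay below (10.9% of all probe sets). Of the members that did not pass, the receptor Ccr1 and the CC ligands Ccl9 and Ccl6 had the highest differences, 1.88, 1.85 and 1.66. In the other 20 members the groups overlapped.

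In numbers, 1 of 30 members rose and 0 fell past the limma threshold, against 0.766% higher and 0.124% lower among all probe sets. Unadjusted p-values were under 0.05 for 12 members, against 13.7% of all probe sets. The share of all probe sets whose knockout arrays lay wholly above the controls was 9.25%, and wholly below 10.9%. Counts of members are per gene, on its highest-mean probe set, while the shares are over all probe sets, so the units differ. Of the 48 member probe sets, 15 lay wholly above the controls, 2 lay wholly below and 1 passed the limma test. Differences were positive in 21 members, where 45.9% of all probe sets were positive. The median difference was 0.35 over the members and -0.04 over all probe sets. A difference of at least 1 was seen in 10 members, against 4.07% of all probe sets, and in 3 of these 10 the groups overlapped. No member stood at -1 or lower, where 2.33% of all probe sets did. Of 12 members with several probe sets, 9 had the same sign in all of them. The members were chosen with earlier results of these data known, so these counts cannot test the family as a whole.

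**Figure D1:**
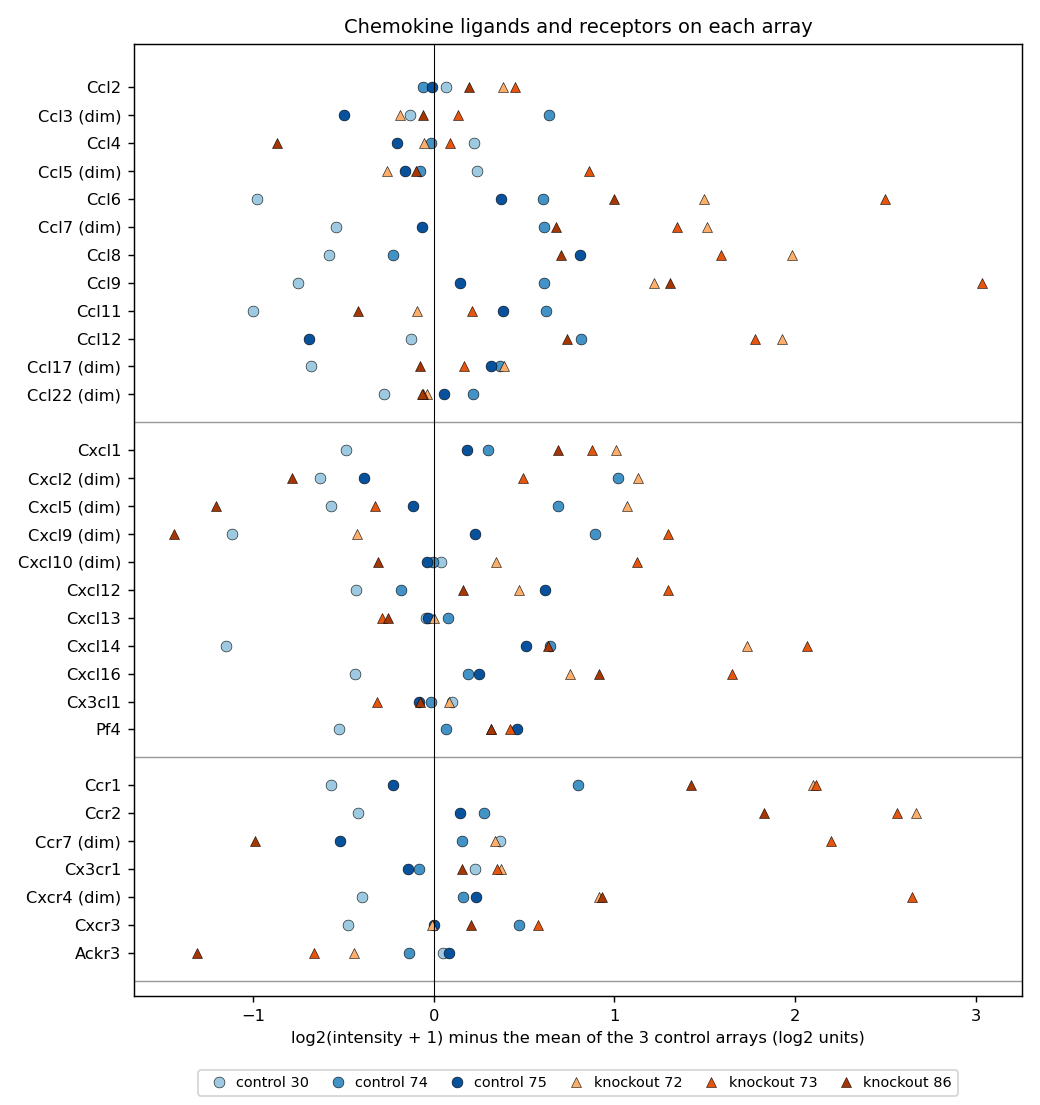
Each row is a chemokine gene and each point an array, plotted as log2(intensity + 1) minus the mean of the 3 control arrays; circles are controls, triangles knockouts, and dim genes are marked. Ccr2 and Ccr1 have all triangles to the right of all circles, Ackr3 has all triangles to the left, and the lower CXC ligands such as Cxcl9 are scattered across zero.

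The receptors hold both extremes of the set. Ccr2 stood at 5.22, 5.91 and 5.78 in controls 30, 74 and 75 and at 8.31, 8.20 and 7.46 in knockouts 72, 73 and 86. The groups were separated by more than 1 log2 unit, and the female knockout 86 was the lowest of the 3 knockouts. The means were 5.64 ± 0.37 and 7.99 ± 0.46 (SD, n = 3 each), a rise of 2.35 (SE 0.29, 5.11-fold, limma adjusted p = 0.017). The control mean lay below 6.10, so the fold depends on the pseudocount, and with a pseudocount of 16 the difference was 2.05.

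Ccr2 has 3 further probe sets, all dim, and in each the knockout arrays lay above the control arrays. Their differences were 1.99 (adjusted p = 0.0897), 1.39 (adjusted p = 0.259) and 1.22 (adjusted p = 0.216), none past the limma test. The call of Ccr2 was lost without control 75 (2.43, adjusted p = 0.0783), knockout 72 (2.20, adjusted p = 0.109) or knockout 73 (2.25, adjusted p = 0.0902). Among males only the difference was 2.62 (adjusted p = 0.0316).

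The promoter window of Ccr2 is shown because it is the member that rose. It spans 250 bases before to 50 from an annotated start, chr9:124101933-124102232, plus strand, of GRCm38.p6, from RefSeq. None of the motifs searched, which are spelled out with the CXC ligands, occurs in it, which says only that these letters are not in this window.
Ccr2: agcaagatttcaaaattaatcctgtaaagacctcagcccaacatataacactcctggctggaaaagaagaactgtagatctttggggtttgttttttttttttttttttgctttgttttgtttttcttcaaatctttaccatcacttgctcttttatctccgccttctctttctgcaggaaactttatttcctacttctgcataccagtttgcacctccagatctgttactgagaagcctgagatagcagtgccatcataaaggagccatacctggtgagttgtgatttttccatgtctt

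**Figure D2:**
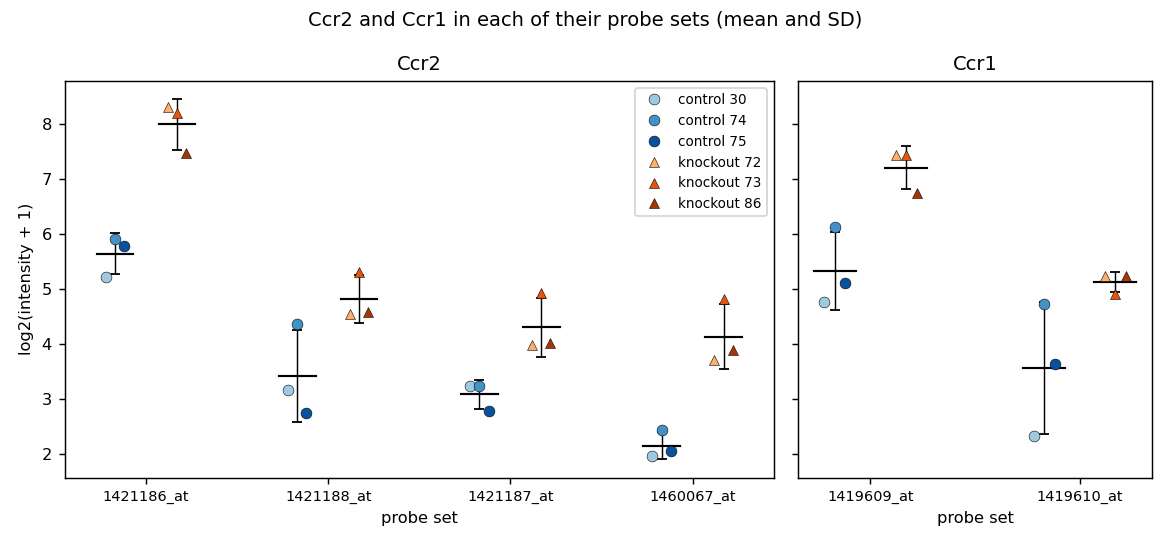
Every probe set of Ccr2 and Ccr1, with log2(intensity + 1) on the y axis, 1 point per array, and the mean and SD of 3 arrays as black bars. Knockout arrays lie above control arrays in all 6 probe sets, while only the brightest Ccr2 probe set passed the test.

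Ccr1, a receptor of monocytes and neutrophils for several CC ligands, came closest to the threshold. Its values were 4.76, 6.12 and 5.10 in controls 30, 74 and 75 and 7.42, 7.44 and 6.75 in knockouts 72, 73 and 86. No knockout value fell within the control range. The difference was 1.88 (SE 0.38, 3.68-fold) and did not pass (adjusted p = 0.0927), though it passed without control 74 (2.28, adjusted p = 0.0436). The second probe set, which is dim, had a difference of 1.56 (adjusted p = 0.294), again without overlap.

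Cxcr4, the signalling receptor for Cxcl12, is dim in its only probe set. It stood at 4.78, 5.34 and 5.41 in controls 30, 74 and 75 and at 6.09, 7.83 and 6.11 in knockouts 72, 73 and 86. Knockout 73 was far above the other knockouts, which lay close together. The difference was 1.50 (SE 0.48, adjusted p = 0.241), and 0.93 without knockout 73 (adjusted p = 0.3).

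Ackr3, the atypical receptor that takes up Cxcl12, ran the other way and was among the bright members, above 95.2% of all probe sets. Its values were 11.19, 11.00 and 11.22 in controls 30, 74 and 75 and 10.70, 10.47 and 9.82 in knockouts 72, 73 and 86. The controls were tightly grouped, and every knockout lay below them with knockout 86 lowest. The difference was -0.81 (SE 0.22, adjusted p = 0.184), and -0.56 among males only (adjusted p = 0.332). Its probe set carries the suffix s, which marks probes shared by several transcripts. Endothelial markers had negative differences too, in all 8 listed genes and without overlap in 4, at a median of -0.57. By limma 0 of them passed, with 4 at an unadjusted p under 0.05 (of all probe sets, 13.7% did so and 10.9% lay wholly below). Their summed level was 14.24 to 14.45 in control and 13.74 to 14.14 in knockout arrays. Differences were also negative in 7 of 8 smooth muscle genes, 3 of them wholly below the controls, and in 6 of 6 white adipocyte genes. The medians of those lists were -0.34 and -0.46, and 0 of their genes passed by limma. The part of any of these lists in the Ackr3 values was not tested.

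The remaining receptors overlapped. Cx3cr1, the receptor of the tethered ligand Cx3cl1 on patrolling monocytes and macrophages, stood at 6.93, 6.62 and 6.56 in controls 30, 74 and 75 and at 7.07, 7.05 and 6.86 in knockouts 72, 73 and 86. The top control lay above the lowest knockout, and the difference was 0.29 (95% confidence interval -0.13 to 0.72). Its other probe set is dim, with a difference of -0.30 (adjusted p = 0.849). Cxcr3, a receptor of activated T cells, stood at 5.73, 6.67 and 6.20 in the controls and 6.19, 6.78 and 6.41 in the knockouts, in the same order of animals. The groups were interleaved, at 0.26 (95% confidence interval -0.42 to 0.93), with 0.021 to 0.49 when 1 array was left out. Ccr7, which guides lymphocytes and dendritic cells to lymph nodes, was dim, from 2.00 to 2.88 in control and from 1.53 to 4.72 in knockout arrays. Its highest value was that of knockout 73, the array with the high lymphocyte markers, and its difference turned from 0.52 to -0.33 without that array.

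**Figure D3:**
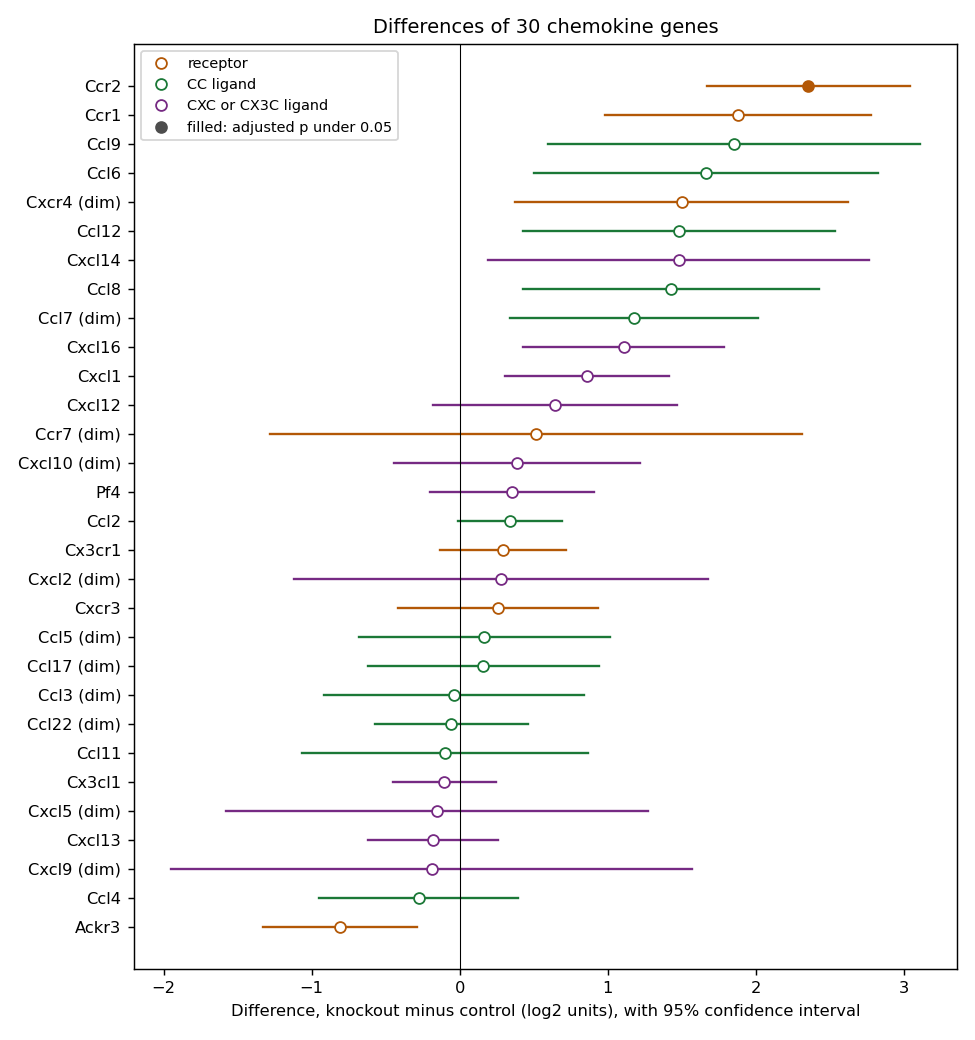
Difference between knockout and control (log2 units) of each of 30 genes, with the 95% confidence interval from limma, coloured by class and ordered by size; the filled point passed the test. Ccr2 is the top gene at 2.35, Ackr3 the bottom one at -0.81, and intervals of 10 further genes besides Ccr2 and Ackr3 lie wholly above zero.

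Among the CC ligands 4 of 12 lay wholly above the controls, 0 lay wholly below and 0 passed the limma test, with 5 at an unadjusted p under 0.05. Of all probe sets, 9.25% lay wholly above, 10.9% lay wholly below and 13.7% had an unadjusted p under 0.05. Ccl9, a rodent ligand of Ccr1, stood at 7.07, 8.44 and 7.97 in controls 30, 74 and 75 and at 9.04, 10.86 and 9.13 in knockouts 72, 73 and 86. All knockouts were above all controls, with knockout 73 far ahead of the others. The difference was 1.85 (SE 0.54, 3.61-fold, adjusted p = 0.202), and it was 1.27 without knockout 73 (adjusted p = 0.302). In its second probe set the groups overlapped, at 1.90 (adjusted p = 0.352).

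Ccl6, another rodent CC ligand made by macrophages, shared its lowest and highest arrays with Ccl9. It stood at 7.86, 9.45 and 9.21 in controls 30, 74 and 75 and at 10.34, 11.34 and 9.84 in knockouts 72, 73 and 86. Control 30 was the lowest array and knockout 73 the highest. The difference was 1.66 (SE 0.50, 3.17-fold, adjusted p = 0.217). It was 1.18 without control 30 (adjusted p = 0.238), and the second probe set gave 1.40 with overlap (adjusted p = 0.279).

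The ligands of Ccr2 had differences from 0.34 to 1.48, none past the test. Ccl7, which draws monocytes through this receptor, is dim and stood at 4.64, 5.80 and 5.12 in controls 30, 74 and 75 and at 6.70, 6.53 and 5.86 in knockouts 72, 73 and 86. The gap between the groups was narrow, between control 74 and knockout 86. The difference was 1.18 (SE 0.36, adjusted p = 0.223). Ccl12, a mouse ligand of Ccr2, ranged from 5.37 to 6.87 in control and from 6.79 to 7.99 in knockout arrays, a difference of 1.48 with overlap (adjusted p = 0.223). Ccl2, the best known ligand of Ccr2, ranged from 7.45 to 7.58 in control and from 7.70 to 7.95 in knockout arrays. Its groups were apart but close, at 0.34 (95% confidence interval -0.01 to 0.69, adjusted p = 0.38).

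Ccl8, which in the mouse acts on Ccr8, ranged from 8.09 to 9.49 in control and from 9.38 to 10.66 in knockout arrays, at 1.43 (adjusted p = 0.218). Ccl11, or eotaxin, which draws eosinophils, ranged from 7.20 to 8.82 in control and from 7.78 to 8.41 in knockout arrays. The knockout values lay inside the control range, at -0.10 (95% confidence interval -1.07 to 0.86). On chromosome 11 of GRCm38.p6, Ccl2, Ccl7, Ccl11, Ccl12 and Ccl8 follow each other in this order, with 1 other gene after Ccl11. The groups were apart for Ccl2 and Ccl7 and overlapped for Ccl11, Ccl12 and Ccl8. In a second run on that chromosome, Ccl5 at 0.17 comes before Ccl9 and Ccl6, and Ccl3 at -0.04 and Ccl4 at -0.28 come after them. There the groups were apart for Ccl9 and Ccl6 only. On chromosome 9, Ccr3, a dim receptor of eosinophils that is no member, lies between Ccr1 and Ccr2 and stood at -1.06 (adjusted p = 0.526).

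Ccl3, Ccl4 and Ccl5 are inflammatory ligands, Ccl3 and Ccl5 for Ccr1 among others. Ccl3 was dim, with 2.98 to 4.11 in control and 3.29 to 3.61 in knockout arrays. Ccl4 ranged from 6.35 to 6.77 in control and from 5.68 to 6.64 in knockout arrays. Ccl5 was dim, with 4.01 to 4.41 and 3.91 to 5.03. The groups overlapped in all 3 genes. Ccl17 and Ccl22, which draw T cells through Ccr4, were dim and overlapped, at 0.16 (adjusted p = 0.87) and -0.06 (adjusted p = 0.932).

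Of the 11 CXC and CX3C ligands, 2 lay wholly above the controls (9.25% of all probe sets) and 0 wholly below (10.9%). By limma 0 passed, with 3 at an unadjusted p under 0.05 (13.7% of all probe sets). Cxcl16, a membrane-bound ligand of Cxcr6, stood at 6.90, 7.52 and 7.58 in controls 30, 74 and 75 and at 8.09, 8.98 and 8.25 in knockouts 72, 73 and 86. No knockout array reached down to the controls. The difference was 1.11 (SE 0.29, 2.15-fold, adjusted p = 0.165). This probe set carries the suffix s, and the one without a suffix gave a smaller value, 0.34 (adjusted p = 0.513), also without overlap. Cxcr6, the receptor, is no member and is dim; it rose by 2.36 (SE 0.28, 5.12-fold, adjusted p = 0.0132). Its values were 3.07, 2.70 and 2.75 in controls 30, 74 and 75 and 5.16, 5.42 and 5.01 in knockouts 72, 73 and 86. All of them lay below 6.10, and with a pseudocount of 16 the difference was 1.22 (adjusted p = 0.0119), so the fold is not firm. The call was lost without control 75, knockout 72, knockout 73 or knockout 86 (highest adjusted p = 0.101). The mean of its probe sets differed by 1.39 (adjusted p = 0.112).

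Cxcl1, which draws neutrophils through Cxcr2, ranged from 6.57 to 7.36 in control and from 7.75 to 8.07 in knockout arrays. The groups did not overlap, at 0.86 (SE 0.24, adjusted p = 0.184). Its probe set carries the suffix s; a second with the suffix x, also for shared probes, gave 0.48 without overlap, and the one with neither suffix gave 0.98 with overlap (adjusted p = 0.374). Cxcl2, its neighbour on chromosome 5 and a ligand of the same receptor, was dim, with 4.16 to 5.81 in control and 4.01 to 5.92 in knockout arrays. These ranges cover each other, at 0.28 (95% confidence interval -1.12 to 1.68). Cxcl5, a further neutrophil ligand, was dim and overlapped as well, at -0.16 (95% confidence interval -1.58 to 1.27).

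The promoters of Cxcl1, Cxcl2 and Ccl9 are shown because they hold the only NF-kB matches among the members with a promoter window. The groups did not overlap for Cxcl1 and Ccl9 and overlapped for Cxcl2. Windows of 300 bases from RefSeq (GRCm38.p6) were found for 23 of 31 listed genes. The other listed genes, among them Ccl2, Ccl7, Ccl11 and Cxcl16, were not searched. Searched were NF-kB as GGG, any 2 bases and TTTCC; PU.1 as GAGGAAGT; AP-1 as TGANTCA; and ISRE, the interferon element, as GAAA, any 2 bases and GAAA. Each was searched on both strands, and the TATA box as TATAAA on the sense strand. Capitals mark the matches, of which none overlap each other in these 3 windows. Cxcl1 lies at chr5:90890995-90891294 and Cxcl2 at chr5:90903649-90903948, both on the plus strand, and Ccl9 at chr11:83578587-83578886 on the minus strand.
Cxcl1: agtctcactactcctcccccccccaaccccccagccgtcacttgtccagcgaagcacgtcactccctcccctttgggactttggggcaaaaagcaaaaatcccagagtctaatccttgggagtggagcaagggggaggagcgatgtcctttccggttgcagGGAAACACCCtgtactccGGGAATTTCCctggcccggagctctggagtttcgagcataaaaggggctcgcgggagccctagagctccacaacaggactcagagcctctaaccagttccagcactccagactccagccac
Cxcl2: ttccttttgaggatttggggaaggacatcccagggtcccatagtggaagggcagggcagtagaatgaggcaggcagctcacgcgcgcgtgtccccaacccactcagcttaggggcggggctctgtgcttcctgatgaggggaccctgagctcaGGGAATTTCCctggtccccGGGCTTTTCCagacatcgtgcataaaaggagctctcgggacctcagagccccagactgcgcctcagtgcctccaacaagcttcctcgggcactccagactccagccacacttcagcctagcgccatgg
Ccl9: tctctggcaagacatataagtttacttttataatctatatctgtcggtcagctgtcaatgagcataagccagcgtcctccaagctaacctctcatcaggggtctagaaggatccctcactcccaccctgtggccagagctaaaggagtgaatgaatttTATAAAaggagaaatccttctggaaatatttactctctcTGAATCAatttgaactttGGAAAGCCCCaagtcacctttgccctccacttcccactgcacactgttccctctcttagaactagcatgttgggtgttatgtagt

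Both neutrophil ligands hold 2 NF-kB matches, and the run GGGAATTTCC occurs in each of them. Ccl9 holds 1 on the opposite strand, with an AP-1 and a TATA match upstream of it. An NF-kB match occurs in 3 of 23 member windows and in 1.63% of all 32851 windows. The other motifs were held by 2 member windows for PU.1 (3.2% of all windows), 3 for AP-1 (7.81%), 3 for ISRE (3.44%) and 8 for the TATA box (8.32%). A match describes the letters and is no evidence of binding.

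Cxcl14, a ligand without an agreed receptor, ranged from 5.16 to 6.96 in control and from 6.95 to 8.38 in knockout arrays. The overlap came from control 74 and knockout 86, and the difference was 1.48 (adjusted p = 0.304), or 0.90 without control 30 (adjusted p = 0.345). Cxcl12, which retains and attracts leukocytes through Cxcr4, is the brightest member, above 97.6% of all probe sets. It ranged from 10.73 to 11.77 in control and from 11.31 to 12.45 in knockout arrays, at 0.64 (adjusted p = 0.473), or 0.32 without knockout 73 and 0.43 without control 30. A second bright probe set of Cxcl12 had the other sign, at -0.28 (adjusted p = 0.861), and so gives no common direction.

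Cxcl9 and Cxcl10, the interferon-induced ligands of Cxcr3, were dim, with differences of -0.19 (adjusted p = 0.933) and 0.39 (adjusted p = 0.675). Both were highest in knockout 73 and lowest in knockout 86, and the Cxcl10 difference was 0.015 without the first and 0.73 without the second. Cxcl13, which draws B cells, ranged from 6.16 to 6.28 in control and from 5.92 to 6.21 in knockout arrays, at -0.18 (adjusted p = 0.715). Cx3cl1, or fractalkine, ranged from 9.02 to 9.20 in control and from 8.79 to 9.19 in knockout arrays, at -0.10 (95% confidence interval -0.45 to 0.25). Its 3 other probe sets, 2 of them dim, gave -0.23 with all knockouts below the controls, and 0.65 and 0.32 with overlap; none passed (lowest adjusted p = 0.527). Pf4, or platelet factor 4, ranged from 9.23 to 10.22 in control and from 10.07 to 10.18 in knockout arrays, at 0.35 (adjusted p = 0.559). It was 0.087 without control 30 and 0.58 without control 75. The 6 platelet markers on the array had a median difference of -0.05 and none passed the limma test. An unadjusted p under 0.05 was seen in 1 of the 6, against 13.7% of all probe sets.

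The arrays differed in how they ranked the members. Knockout 73 held the highest value of 13 members and knockout 72 of 9, while knockout 86 held that of 0; of all probe sets, 15%, 8.23% and 17.5% were highest on these arrays. Control 30 held the lowest value of 16 members, against 17.7% of all probe sets. Summed macrophage markers were also lowest in control 30 and highest in knockout 73. All 15 were higher on average in the knockout, at a median of 1.58, and 1 was dim. In 9 of them the groups did not overlap, against 9.25% of all probe sets wholly above the controls. None of the 15 passed the limma test, and 13 had an unadjusted p under 0.05, against 13.7% of all probe sets. The smallest p-values were those of Mrc1 (1.42, adjusted p = 0.1), C1qa (1.29, adjusted p = 0.114), Fcgr1 (2.14, adjusted p = 0.146) and C1qb (1.75, adjusted p = 0.184). The summed level of the 15 markers was 12.43, 12.98 and 12.90 in controls 30, 74 and 75 and 13.76, 15.13 and 13.59 in knockouts 72, 73 and 86. These markers were higher on the same knockout arrays as Ccr2, Ccr1, Ccl6, Ccl9 and Cxcl16, and their part in those results was not tested. In whole arteries, more cells of a type and more RNA per cell cannot be told apart.

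**Figure D4:**
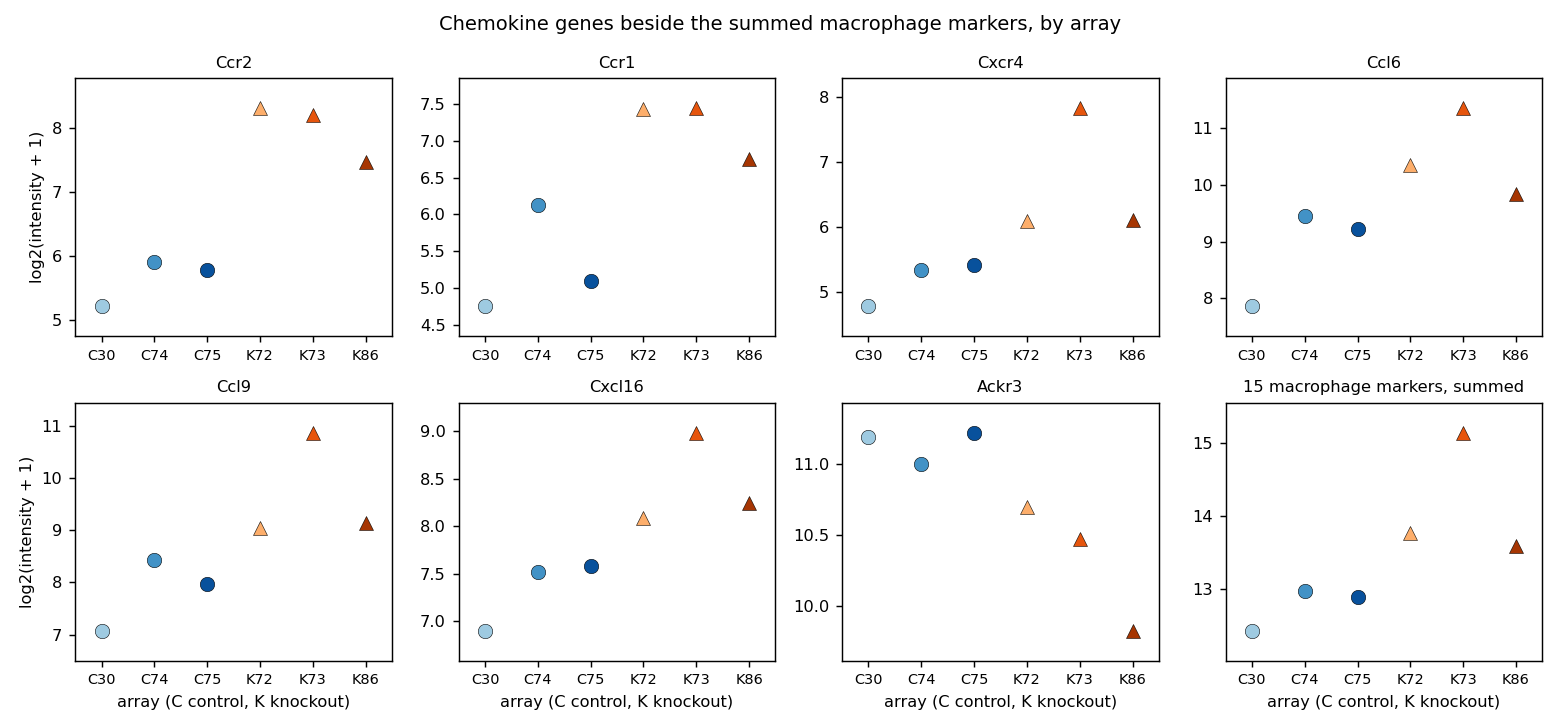
Log2(intensity + 1) of 7 chemokine genes and of the summed signal of 15 macrophage markers, 1 point per array, each panel on its own scale. Ccr1, Cxcr4, Ccl6, Ccl9 and Cxcl16 share with the macrophage markers their lowest array, control 30, and their highest, knockout 73. Ccr2 is also lowest in control 30 but is highest in knockout 72, and Ackr3 is lower in all knockouts.

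Markers of other leukocytes varied in how far the groups separated. Dendritic cell genes had a median of 0.84, with 6 of 6 positive and 3 wholly above the controls (9.25% of all probe sets). By limma 0 of them passed, with 3 at an unadjusted p under 0.05 (13.7% of all probe sets). Their summed level did not overlap between groups, at 8.72 to 9.52 in control and 9.69 to 10.53 in knockout arrays. Neutrophil genes had a median of 0.09 over 7 genes, 6 of them dim, with differences from -1.38 to 0.42. Their summed levels were 8.21 to 8.69 in control and 8.34 to 8.64 in knockout arrays. Mast cell genes had a median of 0.02 over 7 genes, 6 of them dim, with differences from -0.99 to 1.10. Their summed levels were 7.90 to 8.28 and 7.77 to 8.20. In both lists the groups overlapped on the summed level and 0 genes passed by limma. In each, 1 gene had an unadjusted p under 0.05 (13.7% of all probe sets). T and NK cell genes had a median of 0.30, with 6 of 8 positive, and B cell genes one of 0.61, with 5 of 5 positive and all 5 dim. By limma 0 of either passed, 1 and 0 genes had an unadjusted p under 0.05, and the groups overlapped in every gene of both lists. The remaining lists had medians of 0.36 (lymphatic endothelium), 0.19 (fibroblasts), 0.00 (mesothelium), -0.34 (smooth muscle) and -0.46 (white adipocytes), with 0 genes past the limma test. In the same order, 0, 2, 0, 3 and 0 genes had an unadjusted p under 0.05, against 13.7% of all probe sets.

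Chemokine genes on the array outside the set had negative medians, with 4 of 12 ligands and 5 of 15 receptors positive. The split between members and these genes was made with earlier results of these data known. Of 12 further ligands, 0 passed the limma test and the median was -0.23. An unadjusted p under 0.05 was seen in 1 of these ligands (13.7% of all probe sets). The smallest p-values were those of Ccl28 (-0.63, adjusted p = 0.273), Ccl25 (-0.59, adjusted p = 0.389), Ccl27a (-0.34, adjusted p = 0.466) and Cxcl11 (0.36, adjusted p = 0.468). Of 15 further receptors Cxcr6 alone rose and 0 fell, against 0.766% higher and 0.124% lower among all probe sets. Their median was -0.10, and 2 had an unadjusted p under 0.05 by limma (13.7% of all probe sets). Ccr10, which is dim, stood at 1.81 (adjusted p = 0.326), Ccrl2 at -0.32 (adjusted p = 0.45) and Ccr9 at 0.63 (adjusted p = 0.464).

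Of 22 NF-kB and inducing cytokine genes, 2 rose and 0 fell, against 0.766% and 0.124% of all probe sets. Their median was 0.18, and 7 had an unadjusted p under 0.05 by limma (13.7% of all probe sets). In 6 the knockouts lay wholly above the controls (9.25% of all probe sets) and in 1 wholly below (10.9%). Il6, a cytokine of inflammation, rose by 3.73 (SE 0.41, 13.3-fold, adjusted p = 0.0111) from a dim level. It stood at 3.38, 4.19 and 4.06 in controls 30, 74 and 75 and at 8.36, 7.58 and 6.88 in knockouts 72, 73 and 86. Ptgs2, the inducible cyclooxygenase, rose by 3.28 (SE 0.42, 9.71-fold, adjusted p = 0.019), from 4.83, 4.31 and 4.26 in the same controls to 7.55, 7.01 and 8.68 in the same knockouts. With a pseudocount of 16 the differences were 2.82 for Il6 (adjusted p = 0.0134) and 2.64 for Ptgs2 (adjusted p = 0.0268). Both were separated by more than 2 log2 units. The highest array was knockout 72 for Il6, knockout 86 for Ptgs2 and knockout 73 for the summed macrophage markers. The part of macrophages in the Il6 and Ptgs2 values was not tested. Il6 lost its call without control 75, knockout 72 or knockout 73 (highest adjusted p = 0.0629), and Ptgs2 without control 74, control 75 or knockout 72 (highest adjusted p = 0.108). The mean of the Ptgs2 probe sets differed by 1.59 (adjusted p = 0.0558). The NF-kB inhibitor Tnfaip3 stood at 0.89 (adjusted p = 0.0946) and the subunit Relb at 0.56 (adjusted p = 0.245).

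Of 21 genes of chemokine receptor signalling, 0 passed the limma test, with a median of 0.11. An unadjusted p under 0.05 was seen in 4 of them, against 13.7% of all probe sets. The arrestin Arrb1 stood at -0.61 (adjusted p = 0.18), Dock2, a leukocyte migration factor, at 1.74 (adjusted p = 0.242), Arrb2 at 0.69 (adjusted p = 0.273) and the receptor kinase Grk3 at -0.34 (adjusted p = 0.36). Of 14 genes that process or present chemokines, 0 passed, with a median of 0.34. An unadjusted p under 0.05 was seen in 5 of them, again against 13.7% of all probe sets. Tnfaip6, a hyaluronan-binding protein that also binds chemokines, stood at 0.84 (adjusted p = 0.0897), the protease Ctsk at 1.31 (adjusted p = 0.176), Mmp9 at -0.64 (adjusted p = 0.176) and Mmp14 at 0.80 (adjusted p = 0.225).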

How the data were processed

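Total RNA of 6 mesenteric artery samples was labelled with biotin, per the labels' protocols. The authors deposited 1 linear intensity per probe set; their probe summary, background correction and scaling are not given in the sources used here. Array medians lay between 62.8 and 72.6, and 589 to 680 values per array were exactly 1. No detection calls were used here, so depth is judged only by signal and by the 3 arrays per group.

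Intensities were turned to log2(intensity + 1), quantile normalized and fitted with limma 3.58.1 (R 4.3.3) by lmFit and eBayes with a trended prior, 2-sided, over 45037 probe sets, because the members carry no intensity filter. Of these, 34945 have 1 symbol in the platform annotation, 932 several and 9160 none; 34741 gene identifiers were found in a GRCm38.p6 table, which changed 0 symbols. The procedure was tested on simulated data.

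Members and lists were chosen with earlier results of these data known. Values on every array are given for members past the threshold, for those differing by at least 1 without overlap and for receptors that are not dim; lists name up to 4 genes with the smallest p. Ccr3 and the ranges of the other members were added to account for neighbours and for every member. Promoters come from RefSeq. Alternatives covered normalization, pseudocount, prior, array weights, filter, gene summary, threshold and each array left out.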

Additional observations from a re-analysis of the deposited data

How the results depend on the processing

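Under 15 alternative fits the call of Ccr2 held in 11, with differences of 1.74 to 2.62, and it was lost with a plain prior (2.35, adjusted p = 0.0505) and without 3 of the 6 arrays, as given above. The number of members that rose was 2 at an adjusted p under 0.10 and 2 with array weights, in both cases Ccr1 beside Ccr2, and 0 with the plain prior; with an array left out it ranged from 0 to 2. The number that fell was 0 in every fit. All probe sets past the threshold numbered 401, 774 at an adjusted p under 0.10, 180 with the plain prior and 638 with array weights. With 1 array left out the count was lowest, 66, when that array was knockout 72, followed by 115 for knockout 86, 123 for control 75, 157 for knockout 73, 267 for control 74 and 312 for control 30. Fits of 5 arrays have fewer samples; the cause of the other shifts was not tested.

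Of 428 member values under the alternatives, 399 kept their sign and their side of the threshold, 23 changed sign, and 0 of those 23 passed the test. With array weights Ccl3 turned to 0.041, Ccl5 to -0.0094 and Cxcl5 to 0.36. With no normalization between arrays Ccl22 turned to 0.045, and with the mean of all probe sets Cx3cl1 turned to 0.16 and Cx3cr1 to -0.0058. Leaving out 1 array gave ranges across zero for Ccl3 (-0.29 to 0.28), Ccl4 (-0.46 to 0.019), Ccl5 (-0.18 to 0.38), Ccl11 (-0.60 to 0.21), Ccl17 (-0.18 to 0.34), Ccl22 (-0.19 to 0.053), Cxcl2 (-0.15 to 0.81), Cxcl5 (-0.76 to 0.37), Cxcl9 (-0.94 to 0.43), Cx3cl1 (-0.20 to 0.0031) and Ccr7 (-0.33 to 1.26). Median centring moved the median of all probe sets from -0.04 to -0.09. Dim members were not tested where the filter left them out. No paired analysis was possible because the groups share no animal number.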
